A study of Mus musculus with 10 samples.

Results

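The 9 genes described here, Ephx1, Cbr1, Cbr3, Aox1, Aox3, Aldh1a1, Aldh1a7, Akr1c13, and Akr1c19, encode enzymes that act on epoxides and on carbonyl groups. They were taken by symbol, as the rows whose Ensembl gene identifier belongs to one of these names, and all 9 were found among the 21939 genes of the table. RNA was sequenced from freshly isolated hepatocytes of adult male mice, 8 to 9 weeks old and of C57BL/6J background. All mice, controls included, had received AAV8Cre, an adeno-associated virus that expresses Cre recombinase from the thyroxine-binding globulin promoter, which is active in hepatocytes, and the cells were isolated 12 days later. There were 3 libraries labelled control, from wild-type mice without floxed alleles, 2 labelled Nrf2 KO from Nrf2 flox/flox mice, 2 labelled p65 KO from p65 flox/flox mice, and 3 labelled DKO from mice floxed for both genes. Because the control mice carried no floxed allele, the presence of floxed alleles and the loss of the gene cannot be told apart, and other liver cells that remain after the isolation keep both genes.

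Nrf2, encoded by Nfe2l2, is a transcription factor that is held back by Keap1 and that activates genes of antioxidant defense and detoxification through the antioxidant response element. The p65 protein, encoded by Rela, is a subunit of NF-κB, which drives genes of inflammation and survival. The liver meets reactive epoxides, aldehydes, ketones, and quinones from food, drugs, and lipid peroxidation. Epoxide hydrolases open epoxides with water, carbonyl reductases and aldo-keto reductases reduce carbonyl groups to alcohols, and aldehyde dehydrogenases and aldehyde oxidases convert aldehydes to acids. The comparisons ask how these genes differ when Nrf2, p65, or both are lost in hepatocytes, and whether the difference seen with loss of Nrf2 depends on p65.

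Values are estimated counts per gene, scaled by trimmed-mean (TMM) library size to the mean library and called normalized counts below. Total counts were between 33707165 and 49897382 per library. A gene was called when edgeR's quasi-likelihood test gave a Benjamini-Hochberg adjusted p of at most 0.05 over all 13641 genes tested and the log2 fold change was 1 or more, up or down. As to the targeted genes, Nfe2l2 had 1990 to 2318 normalized counts in control, 4739 and 5005 in the libraries labelled Nrf2 KO, 1993 and 1997 in p65 KO, and 3434 to 5240 in DKO. Its total was thus higher in the libraries labelled as lacking Nrf2 (log2 fold change of 1.21 in Nrf2 KO, adjusted p = 0.00488, or 0.0816 without Nrf2 KO 2, and 1.02 in DKO, adjusted p = 0.00347), which goes against the label, and the counts per gene do not separate the exons that Cre removes from the others. Rela had 1221 to 1276 normalized counts in control and 1183 and 1209 in p65 KO, a log2 fold change of -0.07 with an adjusted p of 0.765 (0.11 with equal library totals), so that its total did not show the knockout either. Within these counts, directions below therefore rest on the labels. The study examined the knockouts in isolated hepatocytes by RT-qPCR and Western blot, which are not part of these counts. Nqo1, a quinone reductase and textbook Nrf2 target, had 181 to 218 normalized counts in control and 53 to 103 in the 5 libraries labelled Nrf2 KO or DKO.

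All 8 hepatocyte markers examined were detected in every group, with a sum between 3471110 and 5538660 normalized counts per library. The sum of 12 Kupffer cell markers was 368 to 957 in control, 254 to 814 in Nrf2 KO, 4516 and 6190 in p65 KO, and 1715 to 2905 in DKO, and none of these markers was at 0 throughout a group. The sums of 8 sinusoidal endothelial and of 8 stellate cell markers were likewise highest in p65 KO, with 3037 and 3854 and with 1620 and 1624 normalized counts, against at most 1263 and 342 in control, where Col1a1 was at 0. The part of such cells in the values of the 9 genes was not tested. In whole hepatocyte preparations, fewer cells that express a gene and less RNA per cell cannot be told apart.

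The promoters of 4 of the genes are shown, those of Ephx1, Aox1, and Akr1c19, for which a lower level was called in DKO against p65 KO, and that of Aox3, the neighbor of Aox1 for which none was. Each sequence holds 250 bases before an annotated start and 30 bases from it, 5′ to 3′ on the strand of the gene. The sequences are from RefSeq's GRCm39 annotation and were placed by an exact match to that genome. A capital letter marks the first transcribed base, and the run of capitals in Akr1c19 marks a match to the core of the antioxidant response element. The windows are chr1:180845105-180845384 on the minus strand for Ephx1, chr1:58068878-58069157 on the plus strand for Aox1, chr1:58152045-58152324 on the plus strand for Aox3, and chr13:4283489-4283768 on the plus strand for Akr1c19.
Ephx1: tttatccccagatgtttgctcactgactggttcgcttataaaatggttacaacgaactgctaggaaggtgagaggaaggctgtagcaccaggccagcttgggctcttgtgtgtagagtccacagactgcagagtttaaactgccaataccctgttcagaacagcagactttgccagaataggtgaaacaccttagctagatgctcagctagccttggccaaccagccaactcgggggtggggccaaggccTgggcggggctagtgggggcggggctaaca
Aox1: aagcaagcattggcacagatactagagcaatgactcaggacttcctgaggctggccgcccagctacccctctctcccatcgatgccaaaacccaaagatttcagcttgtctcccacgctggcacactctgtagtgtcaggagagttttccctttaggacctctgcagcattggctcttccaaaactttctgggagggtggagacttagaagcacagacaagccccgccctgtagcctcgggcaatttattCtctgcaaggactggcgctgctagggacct
Aox3: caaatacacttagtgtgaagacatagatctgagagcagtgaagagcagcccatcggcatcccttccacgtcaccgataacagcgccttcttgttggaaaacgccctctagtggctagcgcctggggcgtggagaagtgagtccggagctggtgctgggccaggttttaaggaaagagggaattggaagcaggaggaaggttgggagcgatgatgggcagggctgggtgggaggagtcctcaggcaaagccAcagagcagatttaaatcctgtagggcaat
Akr1c19: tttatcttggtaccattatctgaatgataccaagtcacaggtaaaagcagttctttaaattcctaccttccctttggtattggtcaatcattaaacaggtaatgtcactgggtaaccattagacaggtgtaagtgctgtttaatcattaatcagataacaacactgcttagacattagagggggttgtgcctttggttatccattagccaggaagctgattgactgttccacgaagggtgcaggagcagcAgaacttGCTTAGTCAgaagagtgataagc

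The core of the antioxidant response element (TGACNNNGC) and the NF-κB consensus were searched on both strands of the promoter windows of 300 bases, which reach 50 bases past the start. The first motif was present in 12.4% and the second in 4.51% of 32851 mouse promoter windows of this length. Among the windows of the 9 genes, the antioxidant response element core was found in that of Akr1c19, on the minus strand at bases 8 to 16 after the start, and the NF-κB consensus in that of Akr1c13, on the minus strand at bases -71 to -62. The windows of Ephx1 and Aox1 held neither. A match is a description of the letters and not of a bound factor, and these windows do not cover distal elements. They do not cover every annotated start either. The Ephx1 start used, base 180845134, lies inside the gene, which reaches base 180848537 on the minus strand. The Akr1c19 start used, base 4283739, lies inside a gene that begins at base 4278699.

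Microsomal epoxide hydrolase, encoded by Ephx1, turns reactive epoxides of drugs and aromatic compounds into diols. The gene (ENSMUSG00000038776) lies on the minus strand at chr1:180803775-180848537 of GRCm39. Its normalized counts were 33305, 22781, and 22283 in control, 7527 and 5947 in Nrf2 KO, 13650 and 12847 in p65 KO, and 5807, 6295, and 7493 in DKO. The libraries labelled Nrf2 KO or DKO were all lower than the p65 KO libraries, and these were all lower than the controls. As a share of the control mean, the mean was 25.8% for Nrf2 KO, 50.7% for p65 KO, and 25.0% for DKO. Ephx1 fell by 1.96 on the log2 scale in Nrf2 KO (SE 0.21, adjusted p = 0.00141) and by 2.00 in DKO (SE 0.18, adjusted p = 0.000288). In p65 KO the log2 fold change was -0.98 (SE 0.20, 95% interval -1.41 to -0.55, adjusted p = 0.0109), which passed the adjusted p but not the fold threshold and was called without control 2 (-1.07) or control 3 (-1.09). Without p65 KO 1 (-1.02, adjusted p = 0.0729) or p65 KO 2 (-0.94, adjusted p = 0.0574), the adjusted p did not pass either.

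Between DKO and p65 KO, Ephx1 fell by 1.02 on the log2 scale (SE 0.19, adjusted p = 0.0197). This call was lost without p65 KO 1 (-0.98, adjusted p = 0.104), p65 KO 2 (-1.06, adjusted p = 0.0856), DKO 1 (-0.94, adjusted p = 0.0724), or DKO 2 (-0.99, adjusted p = 0.0348), the last by the fold alone. Between DKO and Nrf2 KO the log2 fold change was -0.04, with a 95% interval of -0.47 to 0.38. The interaction, which is the log2 fold change of DKO over p65 KO minus that of Nrf2 KO over control, was 0.93 for Ephx1 (SE 0.27, 95% interval 0.33 to 1.54, unadjusted p = 0.0059 and adjusted p = 0.188 in edgeR). The smaller difference with loss of Nrf2 in cells labelled p65-deficient than in p65-intact cells thus did not pass the adjustment over all genes.

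**Figure D1:**
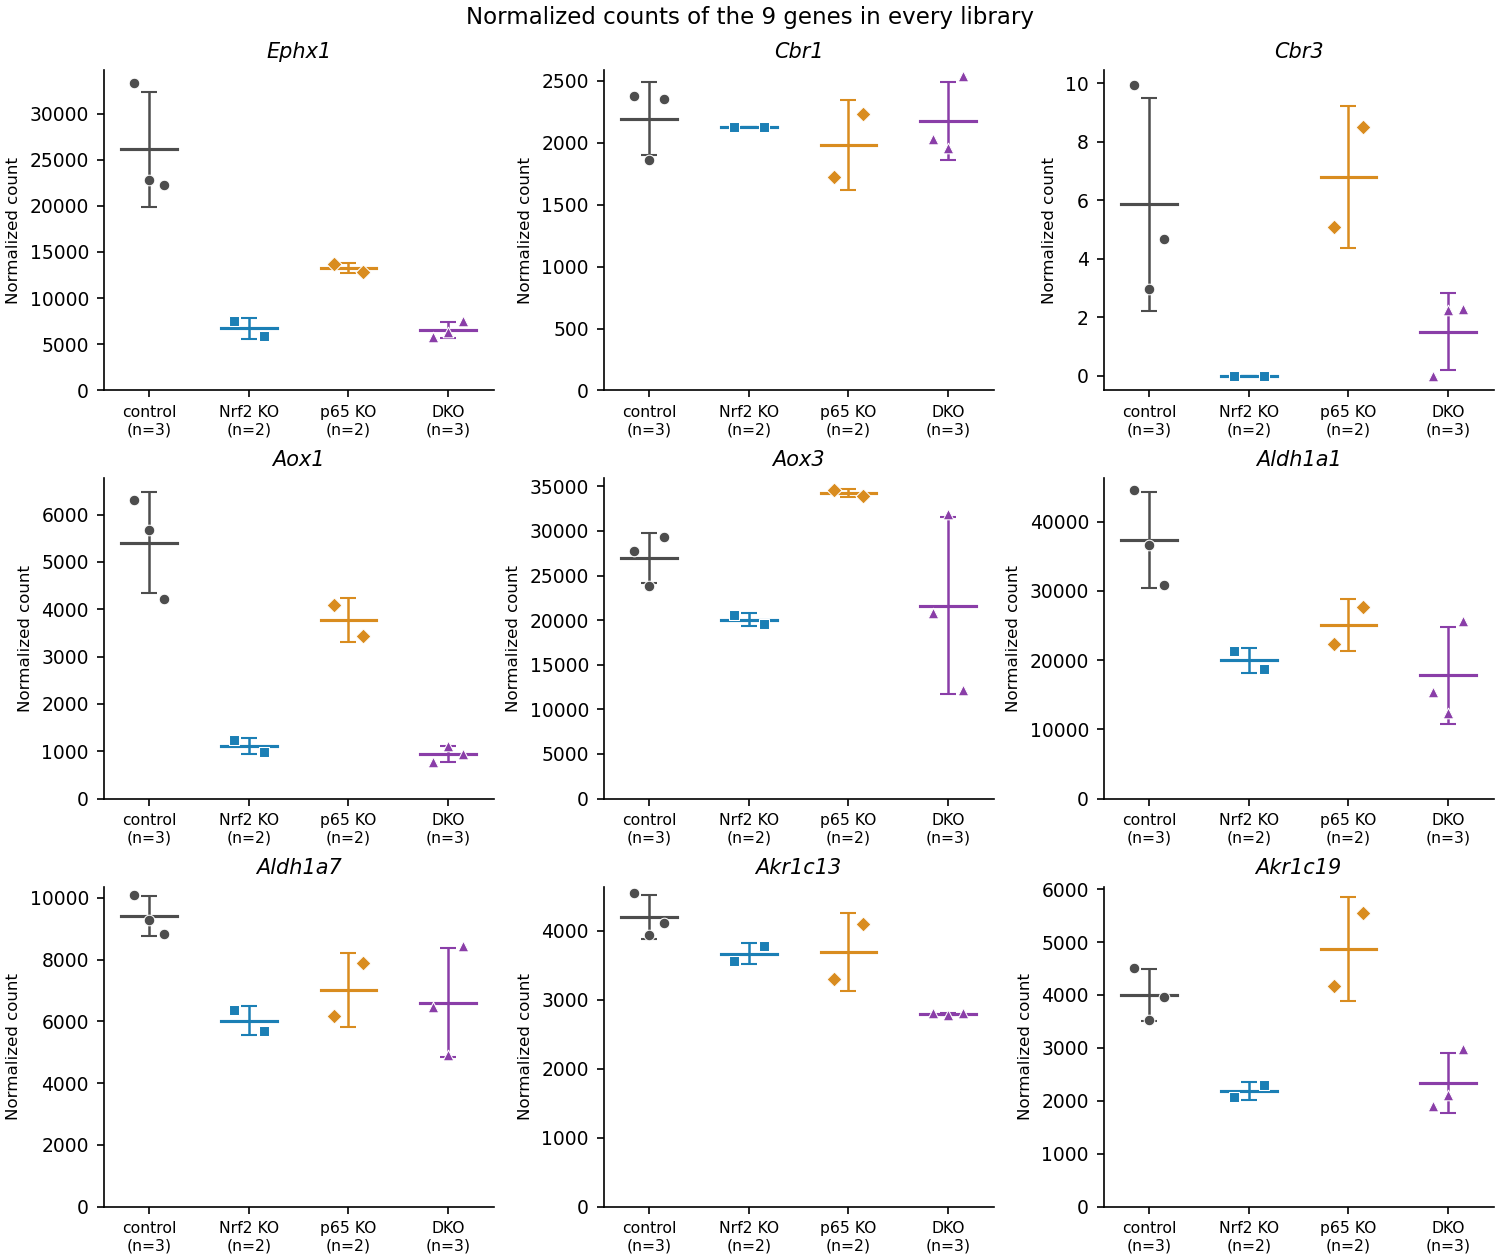
Normalized counts of the 9 genes (vertical axes, linear, each with its own scale) in the 10 libraries, 1 point per library, by labelled genotype; horizontal bars are group means and error bars the SD. Ephx1 and Aox1 are low in all 5 libraries labelled Nrf2 KO or DKO, p65 KO lies between these and control, and Cbr1 overlaps in every group.

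Aldehyde oxidases are molybdenum-containing enzymes that oxidize aldehydes and nitrogen heterocycles, and in mice their genes lie side by side. Aox1 (ENSMUSG00000063558, chr1:58068908-58145995, plus strand) and Aox3 (ENSMUSG00000064294, chr1:58152289-58241493, plus strand) are 6293 bases apart. Aox1 had 6314, 5684, and 4227 normalized counts in control, 1228 and 990 in Nrf2 KO, 4093 and 3435 in p65 KO, and 770, 1104, and 947 in DKO. The 5 libraries labelled Nrf2 KO or DKO were separated from the other 5 by a wide gap, and the p65 KO libraries were below the lowest control. Aox1 fell by 2.29 on the log2 scale in Nrf2 KO (SE 0.21, adjusted p = 0.000563). In DKO it fell by 2.52 against control (SE 0.18, adjusted p = 9.04e-05) and fell by 2.00 against p65 KO (SE 0.19, adjusted p = 0.000886). Its mean was 20.5% of control in Nrf2 KO and 17.4% in DKO. In p65 KO its log2 fold change was -0.52 (SE 0.20), with an adjusted p of 0.0951. The interaction was 0.29 (95% interval -0.32 to 0.89, adjusted p = 0.688), and DKO over Nrf2 KO was -0.24 (95% interval -0.67 to 0.19).

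Aox3, the other aldehyde oxidase abundant in these libraries, did not show this separation. It had 27760, 23882, and 29347 normalized counts in control, 20602 and 19521 in Nrf2 KO, 34595 and 33906 in p65 KO, and 20788, 31936, and 12178 in DKO. Both Nrf2 KO libraries were below all controls and both p65 KO libraries above them, whereas the DKO libraries spread over more than the range of the controls. None of the comparisons with control was called for Aox3, and the log2 fold change was -0.43 for Nrf2 KO (95% interval -1.08 to 0.23), 0.34 for p65 KO (-0.30 to 0.99), and -0.32 for DKO (-0.90 to 0.26). Between DKO and p65 KO the value was -0.66 (adjusted p = 0.209), and with each library left out it was between -1.06 and -0.37, called without DKO 2 (adjusted p = 0.028) and in no other case. DKO over control was -0.71 without DKO 2 (adjusted p = 0.0834) and -0.03 without DKO 3 (adjusted p = 0.947).

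Since both genes are read in the same library, their ratio does not depend on library size, and only its change between libraries is given a reading. The log2 ratio of Aox1 to Aox3 was -2.14, -2.07, and -2.80 in control, -4.07 and -4.30 in Nrf2 KO, -3.08 and -3.30 in p65 KO, and -4.75, -4.85, and -3.68 in DKO. Every library labelled Nrf2 KO or DKO was below every other library. The mean difference was -1.85 between Nrf2 KO and control and -1.24 between DKO and p65 KO. The canonical transcript of Aox1 shared no stretch of 31 bases with another gene and that of Aox3 shared 0.43%. Few reads of these 2 transcripts could thus be divided between the genes.

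The retinaldehyde dehydrogenase Aldh1a1 oxidizes retinal to retinoic acid and also handles aldehydes from lipid peroxidation, and Aldh1a7 is a close rodent relative. Aldh1a1 (ENSMUSG00000053279, chr19:20469539-20622825, plus strand) had 44535, 36598, and 30790 normalized counts in control, 21266 and 18686 in Nrf2 KO, 22380 and 27705 in p65 KO, and 15410, 12352, and 25652 in DKO. All 7 knockout libraries were lower than all 3 controls. In DKO Aldh1a1 fell by 1.07 on the log2 scale (SE 0.24, adjusted p = 0.0301), to 47.7% of the control mean. This call was lost without control 1 (-0.92, adjusted p = 0.115), control 2 (-1.08, adjusted p = 0.0754), DKO 1 (-0.97, adjusted p = 0.0937), or DKO 2 (-0.86, adjusted p = 0.0708). The log2 fold change was -0.90 in Nrf2 KO (SE 0.28, adjusted p = 0.259) and -0.58 in p65 KO (SE 0.27, adjusted p = 0.176), and neither was called. Between DKO and p65 KO it was -0.49 (SE 0.27, adjusted p = 0.301), and the libraries of these groups overlapped. For Nrf2 KO, DESeq2 gave -0.91 with an adjusted p of 0.0301, under the fold threshold, and limma an adjusted p of 0.24.

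Aldh1a7 (ENSMUSG00000024747, chr19:20667107-20704932, minus strand) had 10103, 9298, and 8845 normalized counts in control, 6359 and 5690 in Nrf2 KO, 6169 and 7878 in p65 KO, and 6462, 4921, and 8439 in DKO. Here too every knockout library was below every control, but no comparison was called. The log2 fold changes were -0.64 for Nrf2 KO (adjusted p = 0.272), -0.42 for p65 KO (adjusted p = 0.173), and -0.51 for DKO (adjusted p = 0.119). Of the Aldh1a1 transcript, 4.57% of the stretches of 31 bases also occur in Aldh1a7, and 5.36% in the other direction. With the counts of both summed, the log2 fold change in DKO was -0.94 (adjusted p = 0.0376), short of the fold threshold.

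The DKO libraries differed among themselves in these 2 genes and in markers of liver zones. The sum of 9 pericentral hepatocyte markers was 114778, 94092, and 184652 in DKO 1, 2, and 3, and Aldh1a1 and Aldh1a7 had the same order in these libraries. The sum was 146175 to 155955 in control, 168803 and 194131 in Nrf2 KO, and 219861 and 270288 in p65 KO. Abundant markers weigh most in such a sum. Taken 1 by 1, the 9 pericentral markers had a median log2 fold change of 0.19 in DKO against control, and 0 were called. In p65 KO against control their median was 0.69 with 3 called higher, where 6.59% of all genes were called in either direction. In DKO against p65 KO it was -0.71 with 3 called lower, as were 0.968% of all genes. The p65 KO libraries had the highest pericentral sums, and Aldh1a1 was below all controls in them. The sum of 8 periportal markers was 388221 to 561018 in DKO and 221905 to 343747 in control. The part of zonation in the values of Aldh1a1, Aldh1a7, and the other described genes was not tested in any group.

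Akr1c13 and Akr1c19 belong to the aldo-keto reductases of family 1C, which use NAD(P)H to reduce steroids, ketones, and aldehydes. Akr1c19 (ENSMUSG00000071551, chr13:4278699-4302842, plus strand), whose promoter window held the antioxidant response element core, had 4503, 3521, and 3962 normalized counts in control, 2072 and 2307 in Nrf2 KO, 4178 and 5557 in p65 KO, and 1912, 2104, and 2973 in DKO. The libraries labelled Nrf2 KO or DKO were all lower than the other 5, and control and p65 KO overlapped. Against p65 KO, Akr1c19 fell by 1.06 on the log2 scale in DKO (SE 0.19, adjusted p = 0.0183). That call was lost without p65 KO 2 (-0.84, adjusted p = 0.117), DKO 1 (-0.93, adjusted p = 0.0624), or DKO 2 (-0.996, adjusted p = 0.0341), the last by the fold alone, and with only these 2 genotypes in the fit (adjusted p = 0.0778). Against control, the log2 fold change was -0.87 in Nrf2 KO (SE 0.20, adjusted p = 0.102), 0.29 in p65 KO (SE 0.19, adjusted p = 0.339), and -0.78 in DKO (SE 0.17, adjusted p = 0.0293), the last under the fold threshold.

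Akr1c13 (ENSMUSG00000021213, chr13:4241149-4255602, plus strand) was lowest in DKO. Its normalized counts were 4548, 3938, and 4107 in control, 3556 and 3777 in Nrf2 KO, 3292 and 4092 in p65 KO, and 2807, 2780, and 2802 in DKO. The 3 DKO libraries were nearly equal and lower than the other 7. In DKO the log2 fold change was -0.59 (SE 0.10, adjusted p = 0.012), under the fold threshold, and it was -0.20 in Nrf2 KO (adjusted p = 0.695), -0.19 in p65 KO (adjusted p = 0.306), and -0.40 for DKO over p65 KO (adjusted p = 0.0788). Akr1c13 shares 38.98% of its stretches of 31 bases with Akr1c12, so that its counts depend on how Salmon divided reads between these genes. For the sum of both, the log2 fold change in DKO was -0.48 (adjusted p = 0.0305).

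**Figure D2:**
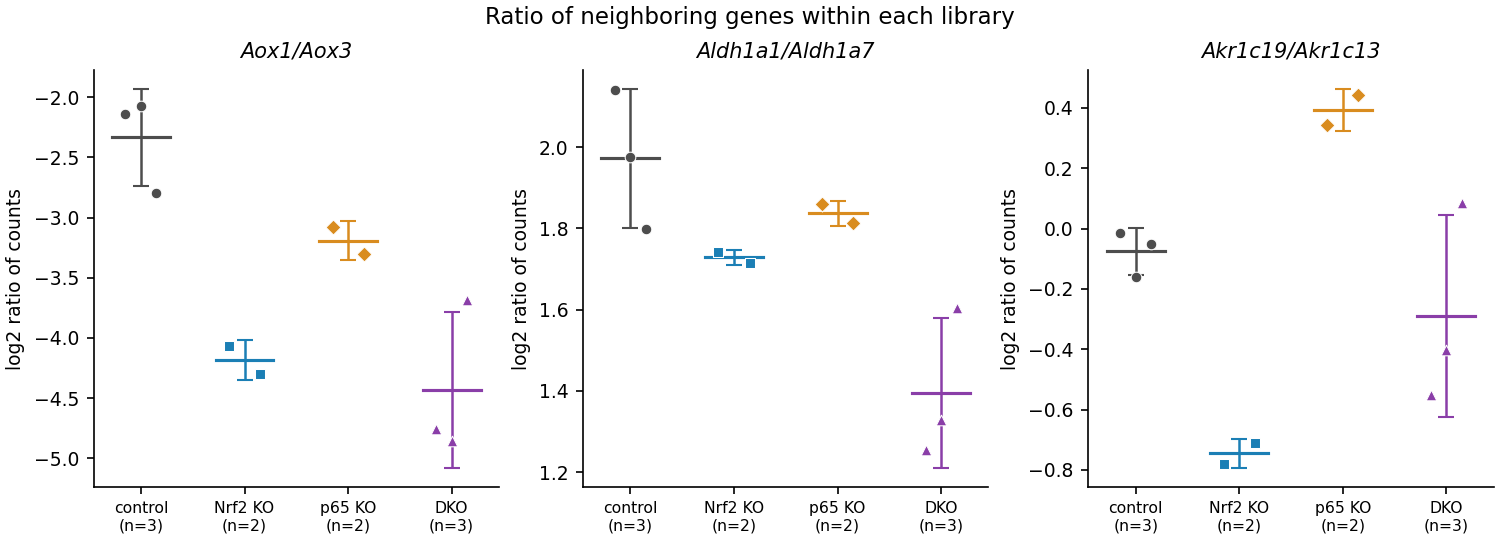
Log2 ratio of counts within each library for 3 pairs of neighboring genes (vertical axes), 1 point per library, with group means and SD. For Aox1 over Aox3 and Aldh1a1 over Aldh1a7 all 5 libraries labelled Nrf2 KO or DKO are below the other 5, and for Akr1c19 over Akr1c13 4 of 5 are.

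Ratios were formed for the other neighbors as well. For Aldh1a1 over Aldh1a7, 44281 bases apart, the log2 ratio was 2.14, 1.98, and 1.80 in control, 1.74 and 1.72 in Nrf2 KO, 1.86 and 1.81 in p65 KO, and 1.25, 1.33, and 1.60 in DKO. Controls and p65 KO overlapped, and all libraries labelled Nrf2 KO or DKO were lower. For Akr1c19 over Akr1c13, 23096 bases apart, the log2 ratio was between -0.16 and -0.01 in control, -0.78 and -0.71 in Nrf2 KO, 0.34 and 0.44 in p65 KO, and -0.55, -0.40, and 0.09 in DKO. DKO 3 was above the controls, whereas the other 4 libraries labelled as lacking Nrf2 were below them. The mean of the differences Nrf2 KO minus control and DKO minus p65 KO was -1.55 for Aox1 over Aox3, -0.34 for Aldh1a1 over Aldh1a7, and -0.68 for Akr1c19 over Akr1c13. A two-sided exact permutation test of the labels within each p65 state gave p = 0.01, 0.02, and 0.01, adjusted over the 3 ratios to 0.015, 0.02, and 0.015, where 0.01 is the smallest p that the design allows. The ratios were formed after the values of the genes had been seen, so these p-values are not independent support.

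Carbonyl reductase 1 reduces quinones, prostaglandins, and ketones. Cbr1 (ENSMUSG00000051483, chr16:93402741-93407393, plus strand) had 2378, 1859, and 2353 normalized counts in control, 2129 and 2125 in Nrf2 KO, 1722 and 2236 in p65 KO, and 2032, 1955, and 2540 in DKO. The groups overlapped in all comparisons. Of its stretches of 31 bases, 14.67% also occur in Cbr1b. Its log2 fold change in DKO was -0.01, with a 95% interval of -0.33 to 0.30, which leaves room for differences below the fold threshold only. Its relative Cbr3 (ENSMUSG00000022947, chr16:93479726-93487879, plus strand) was barely detected. The deposited counts of Cbr3 were 9, 3, and 5 in control, 0 and 0 in Nrf2 KO, 5 and 9 in p65 KO, and 0, 2, and 2 in DKO. A count of 0 allows up to 3 counts per library, so the fold changes of Cbr3 are not given. Cbr3 was tested with the other genes and was called in none of the comparisons.

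**Figure D3:**
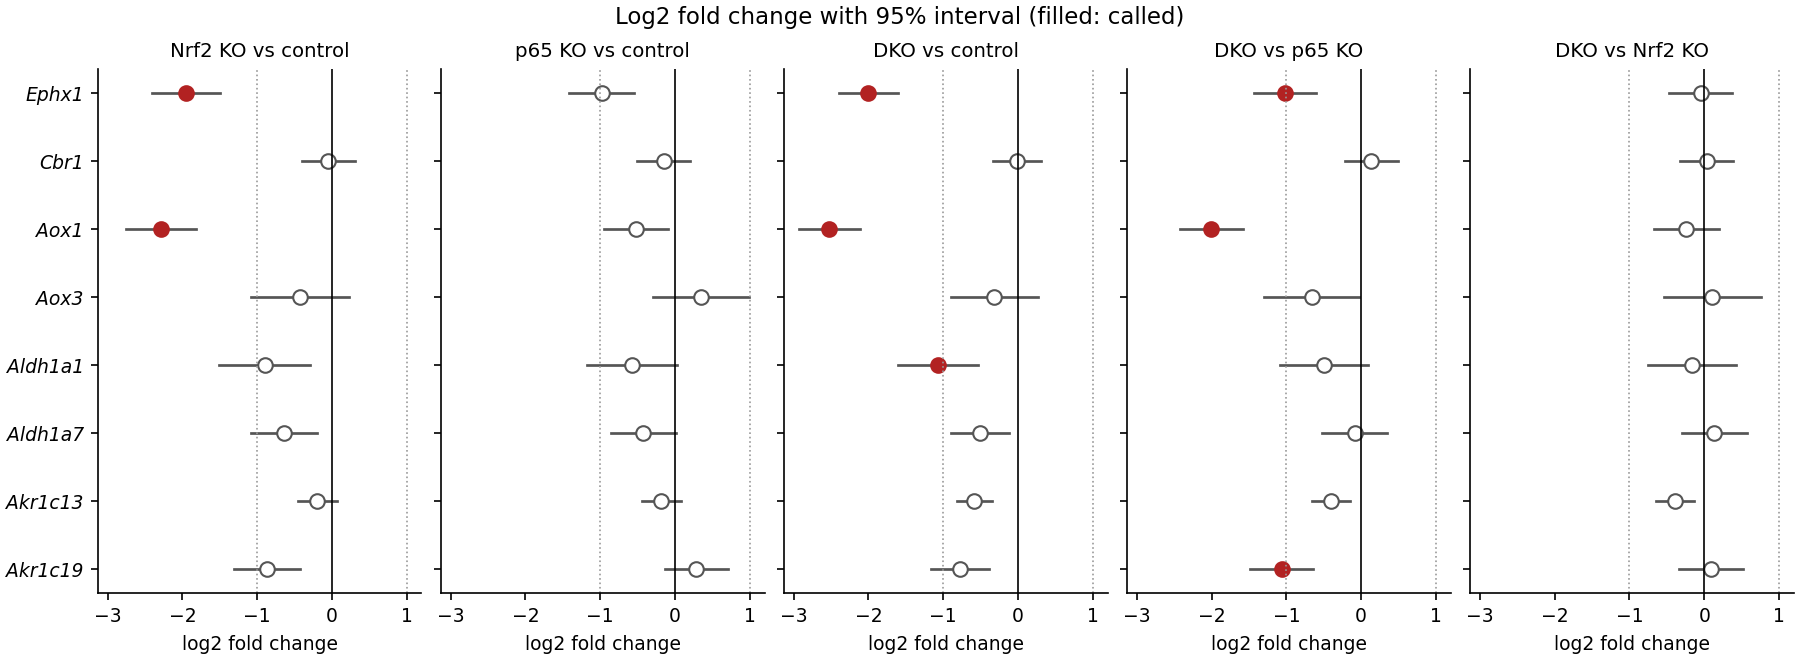
Log2 fold change (horizontal axis) of 8 of the genes in 5 comparisons, with 95% intervals as lines, 0 as a solid line, and the fold threshold of 1 in either direction as dotted lines; filled points were called, and Cbr3 is left out for its low counts. Ephx1 and Aox1 are filled in 3 comparisons each, and no gene is filled for p65 KO over control or DKO over Nrf2 KO.

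Over the 9 genes, 2 were called in Nrf2 KO against control, Aox1 and Ephx1, both lower, where 0.44% of all genes tested were called lower and 0.55% in either direction. In p65 KO 0 were called by edgeR (0 also by DESeq2 and limma), where 6.59% of all genes were called. There 2 had an unadjusted p under 0.05 in edgeR, as had 31.6% of all genes. In DKO 3 were called, Aox1, Ephx1, and Aldh1a1, all lower, where 1.02% of all genes were called lower and 2.38% in either direction. DKO against p65 KO gave 3, Aox1, Akr1c19, and Ephx1, all lower, with 0.968% of all genes called lower and 1.78% in either direction. In DKO against Nrf2 KO 0 were called by edgeR (0 also by DESeq2 and limma), where 0.433% of all genes were called. An unadjusted p under 0.05 was found there for 1, and for 14.4% of all genes. The interaction gave 0 by edgeR (0 also by DESeq2 and limma), where 0.455% of all genes were called. It had an unadjusted p under 0.05 for 1, and for 13.8% of all genes. Comparisons that share the control, p65 KO, or DKO libraries are not independent of each other.

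All libraries were lower than all controls for 8 of the 9 genes in Nrf2 KO (13.6% of all genes), 4 in p65 KO (23.8%), and 7 in DKO (13.2%), whereas 1, Aox3, was higher in both p65 KO libraries than in all controls (26.2%). In DKO against p65 KO this held for 6 of the 9 (20.1% of all genes), and in DKO against Nrf2 KO for 1, Akr1c13 (16.4%). Cbr3 with its few counts is among the 8, the 7, and the 6. The median log2 fold change of the 8 genes other than Cbr3 was -0.76 for Nrf2 KO, -0.30 for p65 KO, and -0.68 for DKO, each over control, where all genes tested had medians of 0.0018, 0.0009, and 0.025. Between DKO and Nrf2 KO the log2 fold changes of the 8 genes were between -0.39 and 0.13.

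Other enzymes of these kinds were read from lists. Of 68 listed epoxide hydrolases, carbonyl and aldo-keto reductases, aldehyde and alcohol dehydrogenases, molybdenum enzymes with their cofactor genes, and quinone reductases, 62 could be tested. In Nrf2 KO 0 of 62 were called by edgeR and by limma, with 11 at an unadjusted p under 0.05 (9.38% of all genes) and a median log2 fold change of -0.03. Nqo1 had the lowest adjusted p of them (log2 fold change -1.40, SE 0.28, adjusted p = 0.0561) and was the 1 gene called by DESeq2. In p65 KO 1 was called (6.59% of all genes), Akr1b8, an aldo-keto reductase, which was higher (1.93, SE 0.56, adjusted p = 0.0424). The Akr1b8 call was lost without any 1 of control 1 or 2 and the Nrf2 KO or p65 KO libraries (1.59 to 2.08, adjusted p between 0.0565 and 0.21). The lowest adjusted p of the 62 in p65 KO was that of Dhrs3 (0.00173), which was lower but under the fold threshold. Suox, Ephx2, Mocos, Dhrs4, Akr7a5, and Mtarc1 (lower) and Xdh (higher) also passed the adjusted p there without reaching the fold threshold. In DKO 2 were called by edgeR and DESeq2 (2.38% of all genes), Nqo1, which fell by 1.35 on the log2 scale (SE 0.25, adjusted p = 0.0126), and Aldh1b1, a mitochondrial aldehyde dehydrogenase, which rose (1.28, SE 0.28, adjusted p = 0.0271), and limma also called Aldh3a2. The Nqo1 call was lost without control 1 (-1.26, adjusted p = 0.0565), and that of Aldh1b1 without control 1 or 2 or DKO 1 or 2 (1.07 to 1.24, adjusted p between 0.0696 and 0.108). Among the 2 testable relatives of Ephx1 was Ephx2, the soluble epoxide hydrolase, whose log2 fold change was -0.57 for Nrf2 KO (adjusted p = 0.103), -0.73 for p65 KO (adjusted p = 0.00663), and -0.60 for DKO (adjusted p = 0.0176), all under the fold threshold. Ephx2, Akr1c14, and the genes named for p65 KO under the fold threshold were named after their values were seen. Against p65 KO, 2 were called lower in DKO (0.968% of all genes), Nqo1 (-1.42, adjusted p = 0.0202) and Akr1c14 (-1.10, adjusted p = 0.008). There the Nqo1 call was lost without either p65 KO library or DKO 1 (-1.45 to -1.21, adjusted p between 0.0547 and 0.0978), and the Akr1c14 call by the fold alone without DKO 1 (-0.99). Of the 10 testable molybdenum enzymes and cofactor genes, the group to which the aldehyde oxidases belong, 0 were called by edgeR, DESeq2, or limma in the comparisons with control, and an unadjusted p under 0.05 was found for 1 with Nrf2 KO, 6 with p65 KO, and 2 with DKO, where 9.38%, 31.6%, and 22.5% of all genes had one.

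**Figure D4:**
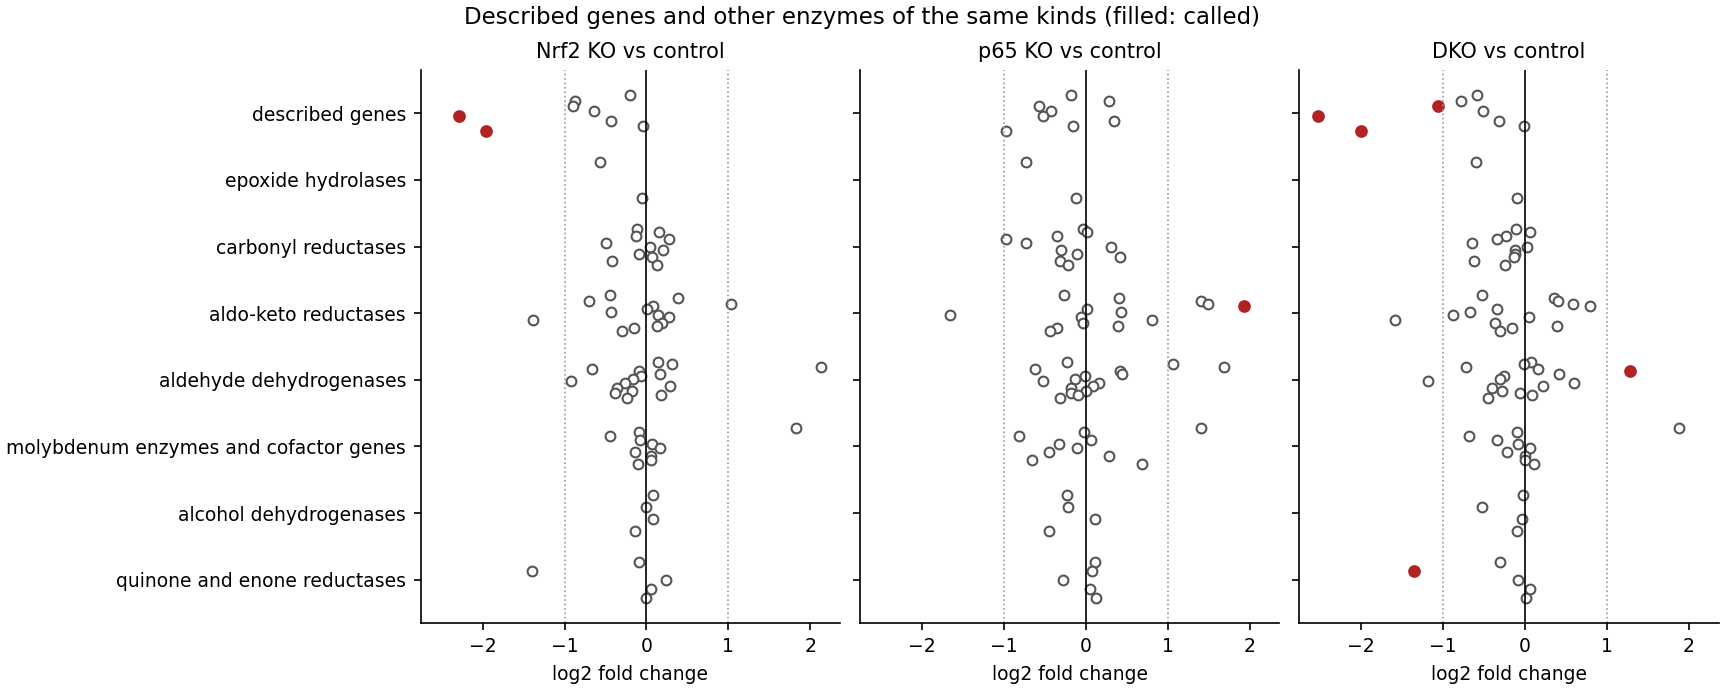
Log2 fold change (horizontal axis) against control of the 8 described genes with enough counts and of the testable genes of 7 lists of related enzymes (rows), 1 point per gene; filled points were called, and dotted lines mark the fold threshold. Filled points to the left are Aox1 and Ephx1 in Nrf2 KO, and Aox1, Ephx1, Aldh1a1, and Nqo1 in DKO.

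Of 14 listed regulators of such genes, Nr1i3, which encodes the xenobiotic receptor CAR, had 4301, 4522, and 4679 normalized counts in control, 1966 and 1892 in Nrf2 KO, 6446 and 5794 in p65 KO, and 1329, 1384, and 2148 in DKO. The libraries labelled Nrf2 KO or DKO were below all others, as for Aox1 and Akr1c19. Nr1i3 fell by 1.22 on the log2 scale in Nrf2 KO (SE 0.19, adjusted p = 0.0172) and by 1.47 in DKO (SE 0.17, adjusted p = 0.00133). Its call in Nrf2 KO was lost without control 1 or 2 or either Nrf2 KO library (-1.25 to -1.19, adjusted p between 0.051 and 0.252). In p65 KO 3 of the 14 regulators were called, all higher, where 6.59% of all genes were called in either direction. Among them was Por, the electron donor of cytochrome P450 enzymes (1.48, SE 0.27, adjusted p = 0.00711). Bach1, a repressor at antioxidant response elements, was another (1.04, SE 0.22, adjusted p = 0.0123), but was not called without p65 KO 1 (0.82, adjusted p = 0.117). The part of other liver cells in the values of Por and Bach1 was not tested.

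For each of the called genes of the comparisons with control, the 3 genes most like it were sought among 10177 others that averaged 50 or more normalized counts, by Pearson's r of log2 normalized counts over the 10 libraries, which share genotype, library, and scaling. Among the 3 genes most like Ephx1 were Creg1 (r = 0.980) and Ftl1, the ferritin light chain (r = 0.980). Creg1 had 13992 to 18313 normalized counts in control, 7023 and 8034 in Nrf2 KO, 10783 and 11162 in p65 KO, and 5292 to 7253 in DKO, with p65 KO between control and the libraries labelled Nrf2 KO or DKO as for Ephx1. Aox1 was most like Gstm1, a glutathione S-transferase (r = 0.989), and the glucuronosyltransferases Ugt2b5 (0.985) and Ugt2b35 (0.982). Gstm1 had 95274 to 116086 normalized counts in control, 11566 and 16030 in Nrf2 KO, 62012 and 68984 in p65 KO, and 9477 to 13929 in DKO. Aldh1a1 was most like Aldh3a2, the fatty aldehyde dehydrogenase (r = 0.978), Htatip2 (0.964), and the carboxylesterase Ces2e (0.960). Aldh3a2 had 6990 to 9653 normalized counts in control, 3962 and 4929 in Nrf2 KO, 4904 and 6831 in p65 KO, and 2568, 2028, and 6498 in DKO, with DKO 3 above the other DKO libraries as for Aldh1a1.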

How the data were processed

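RNA sequencing of 10 hepatocyte samples, 1 per column of the deposited table, was analyzed. The authors quantified single-end reads of poly-A-enriched, stranded libraries with Salmon 1.10.3 on GRCm39 with GENCODE M33 annotation, used DESeq2 1.42.1 for their own tests, and deposited estimated counts per gene. The table is named as normalized, but its values are whole numbers with totals that differ between libraries, and they were treated as counts that had not been normalized. The step from transcripts to genes is not given in the sources used here. Salmon divides reads that fit several genes by an estimate, which affects paralogs.

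Genes with fewer than 10 counts summed over the libraries were left out (the study's methods give the same minimum without saying whether it is a sum), and edgeR 4.0.16 (R 4.3.3) was applied to the other 13641 (TMM normalization, 1 quasi-likelihood model of the 4 genotypes). Benjamini-Hochberg adjustment ran over all genes in each comparison, and the thresholds for adjusted p and fold are those of the study's methods. SE is the log2 fold change divided by the root of the F statistic. Log2 fold changes include edgeR's prior count. Positions and shared stretches of 31 bases are from GENCODE M39 on GRCm39. The test was tried on simulated counts first. Intervals cover the spread between these libraries, and counts rest on reads without molecular identifiers. Libraries of a group were taken as separate mice, as the study describes them; no library was a copy of another, and the replicate numbers did not pair them. Figures were drawn with matplotlib 3.10.9.

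The 9 genes and the lists were chosen with earlier results of these data known. Named beside the 9 genes were the targeted genes, list genes called in a comparison with control (up to 4 per list), and the 3 genes most correlated with each of the called genes; 1 of the genes most correlated with Ephx1 is not reported here. Alternatives were other tests (DESeq2 1.42.0 and limma 3.58.1), scalings, filters, a replicate block, fits of the compared genotypes alone, summed paralogs, and each library left out in turn.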

Additional observations from a re-analysis of the deposited data

How the results depend on the processing

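Of the fold changes given singly, list genes and targeted genes included, 923 of 984 results under an alternative kept direction and call. A call was lost in 45 results and gained in 8, and 8 changed sign. The 984 include fold changes not called at first, which count as kept when sign and lack of a call stayed. They also include left-out libraries outside the comparison, so the share kept does not measure how firm the calls are. The calls of Ephx1 and Aox1 in Nrf2 KO and DKO against control were kept under every alternative that kept the genes apart, with the highest adjusted p of 0.0456 when 1 library was left out; summed with Aox3, Aox1 was not called (-0.61 in Nrf2 KO, -0.52 in DKO). Replicate numbers did not pair the libraries: over 13 same-numbered pairs, deviations from the group means correlated between -0.23 and 0.11, and 2 of 10 libraries correlated best with their own number. With the replicate number as a block, the Aldh1a1 call in DKO was lost (-1.13, adjusted p = 0.0501) and 37 genes, not 59, were called in DKO against Nrf2 KO; the calls of the 9 genes were otherwise the same, and those of Akr1b8 in p65 KO (adjusted p = 0.0898) and Aldh1b1 in DKO (adjusted p = 0.0616) were lost. With only the compared genotypes in the fit, the Aldh1a1 call was also lost (adjusted p = 0.0685), as were those of Akr1b8 (adjusted p = 0.0526), Aldh1b1 (adjusted p = 0.0587), and Nqo1 against p65 KO (adjusted p = 0.088), and 215 genes instead of 325 were called in DKO, 105 instead of 243 in DKO against p65 KO, and 18 in DKO against Nrf2 KO.

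DESeq2 called 135 genes instead of 75 in Nrf2 KO, 534 in DKO, 453 in DKO against p65 KO, 296 in DKO against Nrf2 KO, and 249 instead of 62 in the interaction. Limma with a pseudocount of 10 called 365 in DKO against p65 KO. Equal library totals called 504 there and 118 in the interaction, and no filter 112 in DKO against Nrf2 KO and 137 in the interaction; the cause was not tested. Equal totals moved the median log2 fold change of all genes to 0.18 in p65 KO, -0.27 in DKO against p65 KO, and -0.26 in the interaction, and the share of calls that were lower from 23.4% to 14.0% in p65 KO, 42.8% to 53.6% in DKO, 54.3% to 82.9% in DKO against p65 KO, and 41.9% to 77.1% in the interaction. The calls of the 9 genes did not change with it. Nfe2l2 in DKO was 0.93 with equal totals, under the fold threshold, and Nqo1 in Nrf2 KO was also called without the filter and with only the compared genotypes. DESeq2's share in DKO was 32.8% and in DKO against Nrf2 KO 21.3%.

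With each library left out, genes called ranged from 18 to 84 in Nrf2 KO, 325 to 954 in p65 KO, 147 to 316 in DKO, 70 to 294 in DKO against p65 KO, 18 to 81 in DKO against Nrf2 KO, and 8 to 119 in the interaction. Of the 9 genes, 0 to 1 were called in p65 KO and 1 to 3 in DKO against p65 KO. Signs turned for uncalled values near 0: Cbr1 in DKO was 0.025 with upper quartile scaling and -0.14 to 0.058 with a library left out, Ephx1 in DKO against Nrf2 KO was -0.20 to 0.14, and Rela in p65 KO was 0.11 with equal totals. Of the 16 fold changes not given singly, without those of Cbr3, 12 changed sign in 22 of 314 results, and 0 were called in any. The 2 or 3 libraries per group limit the precision of differences near the fold threshold.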
